A study of Homo sapiens with 12 samples.

Results

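The NOTCH genes examined here are the receptors NOTCH1, NOTCH2 and NOTCH3, the DNA-binding effector RBPJ and 6 targets known in T-cell leukaemia (HES1, HES4, HEY1, DTX1, NRARP and PTCRA). These 10 genes were chosen by name and looked up by NCBI gene ID in a table of 5759 genes in which the authors compared treated with vehicle-treated cells. The table lists 2 of them, NOTCH2 (gene ID 4853) and HES1 (3280), and the other 8 were not analysed here. RNA was sequenced from 12 samples of MOLT4, an established human T lymphoblast line from an acute lymphoblastic leukaemia, labelled wild type, in 4 groups of 3. One group was kept in the vehicle DMSO and collected at 6 h, the next were given 0.1 µM of compound 955 and collected at 1 h or at 6 h, and the last was given 1 µM of SNS-032 and collected at 6 h. SNS-032 inhibits cyclin-dependent kinases, including the transcriptional kinase CDK9, and 955 is a piperlongumine conjugate that carries SNS-032 as its warhead. The doses of the compounds differ, and the 1 h group is compared with a vehicle group collected at 6 h, so time in culture and treatment cannot be told apart there.

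NOTCH receptors are single-pass membrane proteins. Contact with a ligand on a neighbouring cell exposes them to the protease ADAM10 and then to gamma-secretase, which frees the intracellular part to enter the nucleus. There it joins RBPJ and a MAML coactivator on DNA and turns on targets such as HES1, a basic helix-loop-helix repressor that also represses its own gene. In the T lineage this pathway directs early thymocyte fate, and activating mutations of NOTCH1 are frequent in T-cell acute lymphoblastic leukaemia.

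The 250 bases upstream of the RefSeq start of both genes are shown because RBPJ sites are the route by which NOTCH acts on HES1. They come from RefSeq on assembly GRCh38.p14, and each is written 5′ to 3′ on the strand of its gene. Capitals mark TGGGAA, the core of the sequence that RBPJ binds, searched on both strands.
HES1, chr3:194135898-194136147, plus strand: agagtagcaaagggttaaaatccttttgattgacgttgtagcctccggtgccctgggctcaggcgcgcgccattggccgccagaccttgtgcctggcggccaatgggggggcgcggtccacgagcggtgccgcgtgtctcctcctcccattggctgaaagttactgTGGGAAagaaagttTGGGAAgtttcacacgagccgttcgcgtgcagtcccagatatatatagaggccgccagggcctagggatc
NOTCH2, chr1:120069663-120069912, minus strand: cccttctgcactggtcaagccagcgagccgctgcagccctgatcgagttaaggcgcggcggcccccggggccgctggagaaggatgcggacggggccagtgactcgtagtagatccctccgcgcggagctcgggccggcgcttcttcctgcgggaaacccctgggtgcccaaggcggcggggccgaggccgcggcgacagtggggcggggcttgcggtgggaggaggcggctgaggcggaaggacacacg

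The HES1 window held 2 matches to TGGGAA, both on the gene's own strand, beginning 84 and 70 bases before the start and thus 14 bases apart. The first was also a match to the longer form GTGGGAA, which contains the shorter one. Among 35116 promoter windows of the same length, 20.8% held at least 1 match to TGGGAA, 2.90% held at least 2, and 5.43% held GTGGGAA. The NOTCH2 window held 0 matches to either. HES1 also had 3 matches to CACNAG, the N box that HES proteins bind, which 32.0% of all windows held at least once, and NOTCH2 had 0. Of the 10 genes, 8 had a window in the RefSeq table, and TGGGAA was found in those of HES1, HES4 and RBPJ. A match in letters is a description of the window and not a measurement of binding in these cells.

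NOTCH2 lies at chr1:119911553-120069662 on GRCh38.p14, a span of 158.11 kb. Its principal transcript in GENCODE release 29 has 34 exons and 11389 spliced bases. HES1 lies at chr3:194136148-194138732, spans 2.585 kb, and has 4 exons and 1578 spliced bases. In the authors' deposited table the average level over all samples was 6.31 log2 CPM (counts adjusted for library size) for NOTCH2 and 4.28 for HES1. Per kb of spliced transcript the order turned, with 2.80 for NOTCH2 and 3.62 for HES1 on the log2 scale. These are averages over treated and vehicle samples together, so they do not give the level in untreated cells. Values of single samples were not used here and sequencing depth is unknown, so each change below carries a standard error implied by the authors' own F statistic in place of a spread over replicates. Nothing in the labels says whether the 3 samples of a group were separate cultures, so these errors may reflect technical spread alone.

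NOTCH2 fell after 6 h of either compound. In the authors' deposited table its log2 fold change was -1.29 with 955 (FDR, the false discovery rate, 4.46e-07) and -1.16 with SNS-032 (FDR 1.78e-06). The implied standard error was 0.16 in both. NOTCH2 mRNA was thus at 41.0% of the DMSO level with 955 (95% interval 32.7 to 51.4) and at 44.6% with SNS-032 (35.6 to 55.9). In bulk RNA, fewer cells with the transcript and less transcript per cell cannot be told apart.

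At 1 h, NOTCH2 did not pass the test. In the authors' deposited table its log2 fold change with 955 was -0.12 (FDR 1), with a 95% interval from -0.44 to 0.20. The difference between 6 h and 1 h of 955 was -1.17 (standard error 0.16, 95% interval -1.49 to -0.84, adjusted p 5.07e-07 by the approximate contrast). NOTCH2 was therefore lower at 6 h than at 1 h of the same dose. Nearly all listed genes passed in at least 1 comparison, and NOTCH2 passed at 6 h only. The difference thus uses a value on which its listing rests.

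HES1 passed the test with SNS-032 alone, and its values were far less precise. In the authors' deposited table its log2 fold change with SNS-032 was -2.22 (FDR 0.0395), and HES1 mRNA was at 21.4% of the DMSO level (95% interval 7.23 to 63.4). With 955 at 6 h the authors' deposited table gives -1.78 (FDR 0.0920), which is 29.2% of the DMSO level (10.1 to 84.4). At 1 h the authors' deposited table gives -1.09 (FDR 0.645), and the interval ran from -2.59 to 0.41. The 3 estimates are negative, but only the SNS-032 value was past the threshold, and it was not past an FDR of 0.01. That pass is close to a condition for HES1 being listed, as nearly all listed genes passed at least once. Passing with SNS-032 and not with 955 does not show that the compounds differ for HES1.

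**Figure D1:**
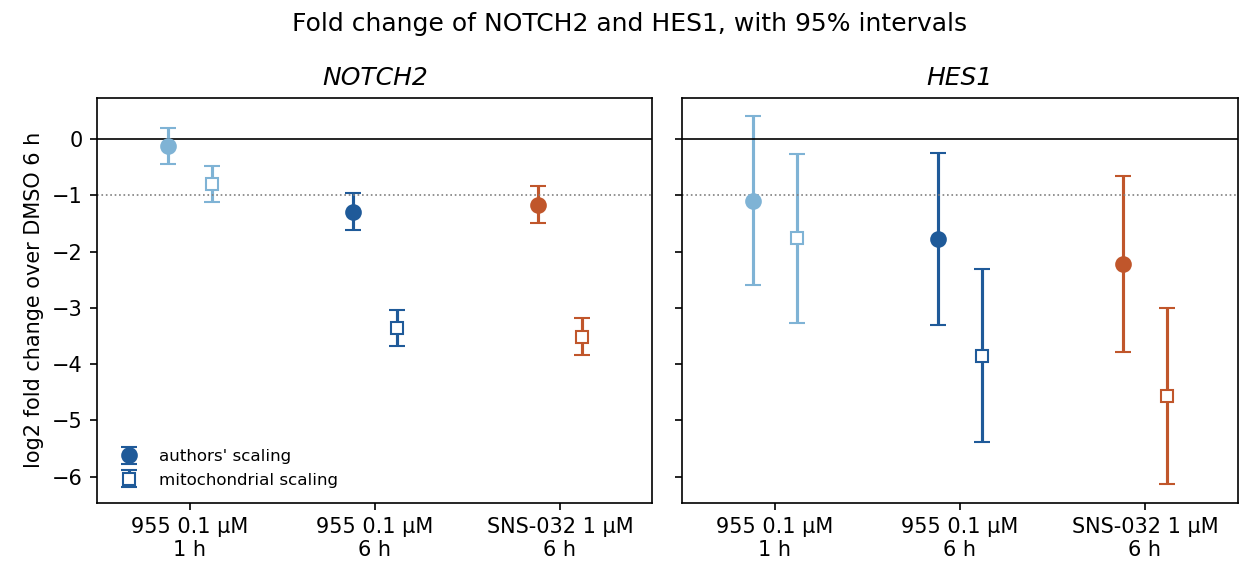
Log2 fold change over DMSO at 6 h (y axis) of NOTCH2 and HES1 for the 3 treated groups (x axis). Filled circles are the authors' values, open squares the same values after scaling on mitochondrial mRNAs, bars are 95% intervals from the implied standard errors, and the dotted line is a log2 fold change of -1. NOTCH2 sits at -1.29 and -1.16 at 6 h with short bars, while HES1 has bars several times as long. Bars of the squares leave out any error in the mitochondrial scaling.

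The threshold used throughout was an FDR under 0.05 together with a log2 fold change of 1 or more in either direction. By it, 0 of the 2 NOTCH genes were called at 1 h in the authors' deposited table, where 8.44% of all listed genes were, and 0 of the 2 had an unadjusted p under 0.05 there. With 955 at 6 h, 1 was called (lower), against 85.3% of listed genes called in either direction and 50.1% called lower. With SNS-032, both were called lower, against 90.2% called in either direction and 52.5% called lower. Of the 5759 listed genes, 5757 met the threshold in at least 1 comparison, so a call at 6 h is close to a condition for being listed and is no result about NOTCH genes as a group. For scale, the median log2 fold change of all listed genes was -0.05 at 1 h, and at 6 h it was -1.03 under 955 and -1.07 under SNS-032. NOTCH2 was near these medians, with 37.4% of listed genes below it with 955 at 6 h and 46.0% with SNS-032. HES1 was further down, with 20.9% and 14.6% of listed genes below it, and at 1 h with 8.75% below it.

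Neither gene passed the test of the difference between the compounds, whose doses were unequal (0.1 µM of 955 and 1 µM of SNS-032). The log2 difference (955 minus SNS-032 at 6 h) was -0.12 for NOTCH2, with a standard error of 0.16, a 95% interval from -0.45 to 0.20 and an adjusted p of 0.796. For NOTCH2 the interval thus excludes a difference as large as 1 on the log2 scale in either direction. For HES1 the difference was 0.44, with a standard error of 0.68, an interval from -1.10 to 1.99 and an adjusted p of 0.841. The HES1 interval includes differences past 1 in both directions, so a 2-fold difference between the compounds was not detectable for this gene. Of the 2 genes, 0 were called and 0 had an unadjusted p under 0.05 in this t-distribution contrast, against 1.11% called over all listed genes.

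Between 6 h and 1 h of 955, the HES1 difference was -0.69 (standard error 0.66, interval -2.20 to 0.83, adjusted p 0.348), which did not pass, while NOTCH2 passed as given above. Whether the genes differ from each other in this was not tested. So 1 of the 2 genes was called, lower at 6 h, against 62.6% of all listed genes called in either direction and 35.6% called lower. Whether HES1 moved earlier than NOTCH2 could not be resolved, because the 1 h interval of HES1 includes both 0 and its 6 h value.

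**Figure D2:**
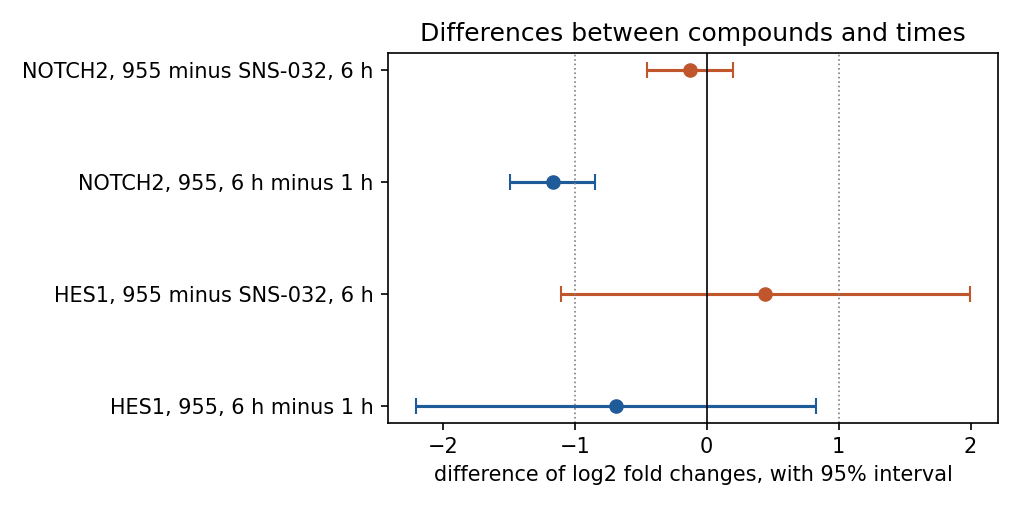
Differences between log2 fold changes (x axis) for NOTCH2 and HES1, between compounds at 6 h (955 minus SNS-032) and between times of 955 (6 h minus 1 h). Bars are 95% intervals and dotted lines mark differences of -1 and 1. The NOTCH2 time difference of -1.17 is the only interval that leaves out 0.

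The imprecision of HES1 was unusual for its level. Its implied standard error for SNS-032 was 0.68, against a median of 0.21 among the 1039 listed genes within 0.5 log2 CPM of it, of which 0.0962% had a larger one. NOTCH2, at 0.16, was close to the median of 0.15 among the 621 listed genes around its own level. The denominator degrees of freedom recovered from the F statistic were 8.35 for HES1 and 23.3 for NOTCH2, and 27 listed genes had fewer than HES1. For comparison, 12 samples less 4 group means leave 8. Which samples were high or low for HES1 was not analysed here.

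**Figure D3:**
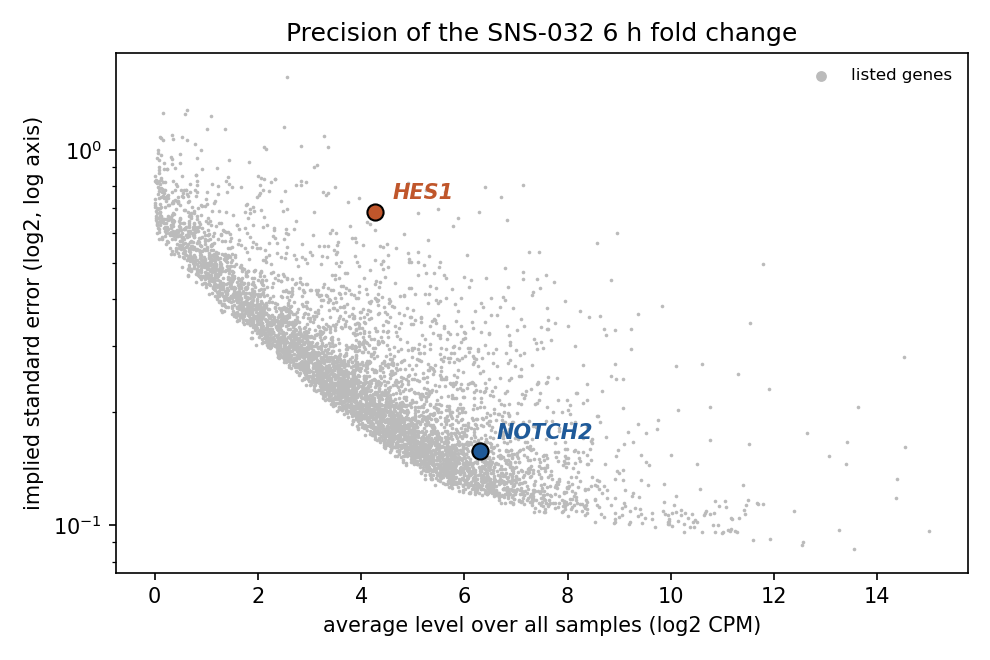
Implied standard error of the SNS-032 log2 fold change (y axis, log scale) against the average level over all samples (x axis, log2 CPM) for the listed genes in grey. NOTCH2, at 0.16, lies in the dense band of genes of its level, and HES1, at 0.68, lies above nearly all genes of its level.

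The fold changes of both genes were also put on another scale. The 13 mRNAs encoded by the mitochondrial genome, which another polymerase makes, in the authors' deposited table had median log2 fold changes of 0.67 at 1 h and, at 6 h, of 2.07 under 955 and 2.35 under SNS-032. After subtraction of these medians, NOTCH2 was at -0.79, -3.36 and -3.51 and HES1 at -1.77, -3.85 and -4.57 in the same order. The standard errors were left unchanged, so adjusted p-values on this scale leave out any error in the medians. At 1 h the NOTCH2 value then had an adjusted p of 0.000659 and missed the threshold by its fold alone. HES1 with 955 at 6 h was then past the threshold (adjusted p 0.00254), so that both genes were called lower with each compound at 6 h, against 65.8% of all listed genes for 955 and 71.1% for SNS-032. The HES1 difference between 6 h and 1 h was also past it by the approximate contrast, at -2.08 (adjusted p 0.0183). So was that of NOTCH2, against 58.1% of listed genes called lower. Both differences were adjusted over the 5759 listed genes alone, and the comparisons with DMSO over 28395 tests. Whether the HES1 difference would pass over that larger number was not tested. The subtraction lowered each 6 h estimate over DMSO by 2.07 with 955 and by 2.35 with SNS-032 on the log2 scale. Positive medians were subtracted from negative estimates, so the sign could not change.

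Reads of NOTCH2 can be shared with near-identical partial copies on the same chromosome. The copy NOTCH2NLA (gene ID 388677) is listed, with an average level of 1.05 log2 CPM in the authors' deposited table, far under that of NOTCH2. In the authors' deposited table its log2 fold change was -0.13 with 955 at 6 h (FDR 1) and -1.47 with SNS-032 (FDR 0.0129). The difference between the compounds for NOTCH2NLA was 1.34 (standard error 0.44, adjusted p 0.116), which did not pass. On the mitochondrial scale that difference passed by the same contrast, at 1.61 (adjusted p 0.0193, over the 5759 listed genes alone). There NOTCH2NLA was also called lower with 955 at 6 h, at -2.20 (adjusted p 0.000223). How the counting divided reads between these copies is not given in the sources used here, so both values are uncertain to that extent.

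The genes whose 3 fold changes lay closest to those of NOTCH2 were RNF40, NOL6 and ARHGAP30, at Euclidean distances of 0.049, 0.051 and 0.052 on the log2 scale, and 218 listed genes lay within 0.25 of NOTCH2. For HES1 the closest were TREML2, RNF25 and PCDH10, at 0.10, 0.13 and 0.15, with 17 listed genes within 0.25. The 3 comparisons share their DMSO samples, so the distance describes 3 related numbers per gene.

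The other genes of the pathway were taken from a list of 88 genes ordered by role, of which 34 were listed, or 32 without NOTCH2 and HES1. Of these 32, 10 rose and 19 fell with 955 at 6 h, where 35.2% of all listed genes rose and 50.1% fell. With SNS-032, 13 rose and 14 fell, where 37.8% of all listed genes rose and 52.5% fell. At 1 h, 0 rose and 1 fell, where 7.71% of all listed genes fell. It was GATA3, a T-lineage transcription factor, named here after its values were seen, with -1.38 in the authors' deposited table (FDR 0.0362). The median log2 fold change of the 32 was -0.06, -1.04 and -0.87 in the 3 comparisons, near that of all listed genes. On the mitochondrial scale the split became 1 rise and 22 falls with 955 at 6 h (1.82% and 65.8% of all listed genes) and 1 rise and 26 falls with SNS-032 (1.42% and 71.1%). At 1 h it became 11 falls, where 27.7% of all listed genes fell. Of the 10 rises with 955 at 6 h, 8 turned negative on that scale, and HDAC1, a histone deacetylase gene singled out after its values were seen, was called lower. Of the 13 rises with SNS-032, 11 turned negative and 7 were called lower. The rises given below therefore hold on the authors' scale, except that of HES7, which passed on both.

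Upstream of the receptor, the ligand gene JAG2 rose in the authors' deposited table, by 2.41 with 955 at 6 h (FDR 0.00525) and 2.64 with SNS-032 (FDR 0.00248), at an average level over all samples of 0.19 log2 CPM. The receptor processing genes fell in 4 of 4 listed members with 955 at 6 h and in 2 of 4 with SNS-032, against 50.1% and 52.5% of all listed genes. By FDR alone, 4 of 4 were lower with each compound. The share of all listed genes lower by FDR alone is not given here, so that count has no comparison. ADAM10, the protease that makes the first ligand-dependent cut in NOTCH receptors, had values in the authors' deposited table of -1.49 for 955 (FDR 1.75e-09) and -1.94 for SNS-032 (FDR 2.61e-11). APH1B, a gamma-secretase subunit, was at -1.34 (FDR 0.00107) and -1.73 (FDR 7.29e-05) in the authors' deposited table. Both fell with either compound, as NOTCH2 did. Among regulators of turnover, the ubiquitin ligase gene DTX3L was at -1.91 (FDR 0.00231) and -2.16 (FDR 0.00106) in the authors' deposited table. NEURL1, whose product acts on NOTCH ligands, was at 1.77 (FDR 0.0358) and 1.81 (FDR 0.0314) in the authors' deposited table, at an average level of 0.11 log2 CPM.

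The nuclear partners moved in both directions. SNW1, which binds the RBPJ complex and also belongs to the spliceosome, had values in the authors' deposited table of -2.17 for 955 (FDR 1.58e-10) and -2.21 for SNS-032 (FDR 9.24e-11). The acetyltransferase gene CREBBP was at -1.82 (FDR 1.21e-10) and -1.92 (FDR 4.03e-11) in the authors' deposited table. KAT2B, another acetyltransferase gene, was at 1.66 (FDR 5.52e-08) and 1.68 (FDR 4.02e-08) in the authors' deposited table. Of the corepressor genes, TLE3 fell to -2.03 (FDR 1.2e-10) and -2.14 (FDR 3.94e-11) in the authors' deposited table. TLE2, at an average level of 0.80 log2 CPM, was at 1.69 (FDR 0.121) and 2.21 (FDR 0.0360) in the authors' deposited table.

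In the HES and HEY family, the other listed members had positive estimates at 6 h on the authors' scale where those of HES1 were negative. HES6, which can antagonise HES1 protein, rose in the authors' deposited table by 1.70 with 955 (FDR 4.59e-05) and 1.29 with SNS-032 (FDR 0.000953). HES7, known from the segmentation clock, rose in the authors' deposited table by 6.50 (FDR 6.25e-07) and 7.06 (FDR 2.25e-07). Its average level over all samples was 1.79 log2 CPM, which takes in the 6 h treated samples where it was higher. The HES7 level in DMSO was therefore lower than this average and is not given here. On the mitochondrial scale HES7 stayed higher, at 4.43 and 4.71, while HES6 turned negative, at -0.37 and -1.06. Of 8 further listed targets known in T-cell leukaemia, 7 fell with 955 at 6 h and 5 with SNS-032, with which CR2 rose, against 50.1% and 52.5% of all listed genes called lower. By FDR alone, 7 were lower with each compound, again without a share of all listed genes to set beside it. MYC, a direct NOTCH target in this leukaemia, had values in the authors' deposited table of -3.07 for 955 (FDR 8.71e-06) and -3.53 for SNS-032 (FDR 2.95e-06). IL7R, the interleukin-7 receptor gene, was at -3.64 (FDR 0.00121) and -4.48 (FDR 0.000296) in the authors' deposited table. Its average level over all samples was low, at 0.53 log2 CPM. ID1, an inhibitor of basic helix-loop-helix factors, was at -2.64 (FDR 0.0205) and -3.34 (FDR 0.00664) in the authors' deposited table. In the contrast of the compounds, 0 of the 34 listed pathway genes were called, 3 had an unadjusted p under 0.05, and 1 had an adjusted p below that value when no fold was asked for, against 2.73% of all listed genes. It was CDK6, named after its values were seen, lower under 955 by a log2 difference of -0.51 (adjusted p 0.0122, standard error 0.11). Its adjusted p was 0.371 when the sharing of DMSO samples was left out of the standard error, and 0.170 on the mitochondrial scale. On that scale ADAM10 (difference 0.72, adjusted p 0.00108) and POFUT1, a receptor fucosyltransferase gene (0.43, adjusted p 0.0414), passed without the fold bound in place of CDK6, both higher under 955. Their adjusted p-values were taken over the 5759 listed genes alone.

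**Figure D4:**
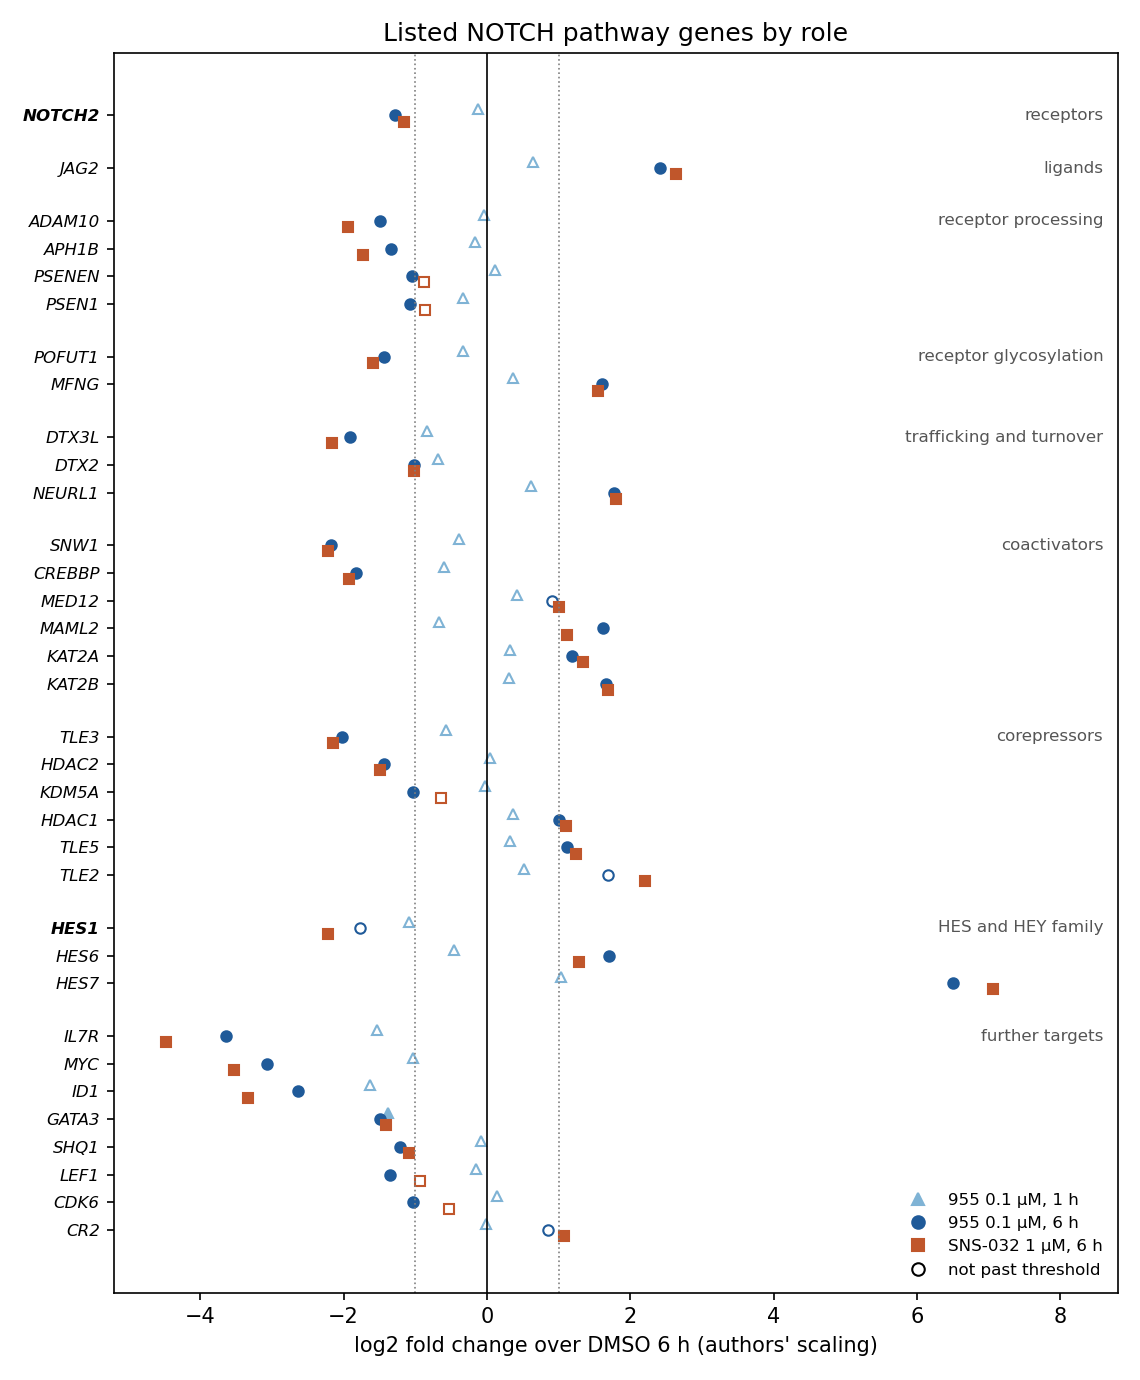
Log2 fold change over DMSO at 6 h (x axis, authors' scaling) of the 34 listed NOTCH pathway genes grouped by role (y axis), with NOTCH2 and HES1 in bold. Triangles are 955 at 1 h, circles 955 at 6 h, squares SNS-032 at 6 h, and open symbols did not pass the threshold. At 1 h only GATA3 has a filled symbol, and HES1 lies on the negative side while HES6 and HES7 lie on the positive side at 6 h.

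The T lymphoblast label was looked at through 16 marker genes, of which 6 were listed, with average levels from 4.75 (CD2) to 8.06 log2 CPM (CD1E). The B-cell marker CD79A was listed at 3.94 log2 CPM, with log2 fold changes in the authors' deposited table of 0.97 for 955 at 6 h and 1.10 for SNS-032. Of 3 myeloid and 3 erythroid markers, 0 were listed. Nearly all listed genes are there because they changed, so the absence of a marker does not give its level. Listing therefore does not decide the cell type. The part of these markers in the NOTCH2 and HES1 values was not tested.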

How the data were processed

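Libraries were made from total RNA with a BGI kit for mRNA, per the labels' protocols. The submitters' processing notes name hg38 and DESeq2, without a role. The aligner, counter, annotation and strand setting are not given in the sources used here. Samples were grouped by title.

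Per the file headers, the deposited table holds, for each of 3 comparisons with DMSO, an FDR, a p-value, an F statistic, a log fold change and an average log CPM. The authors' log values were taken to be log2, since no listed gene has all of its fold changes within 1 of zero (the smallest maximum is 1.001). The deposited F is a score that served for standard errors, and each deposited p-value and FDR stands as given. Depth per sample is unknown, so no interval that needs depth is given.

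Gene IDs were named from RefSeq (GRCh38.p14), where 5727 of 5759 matched. The implied standard error is the size of the log2 fold change divided by the root of F, with degrees of freedom solved from F and p. Contrasts of treated groups are differences of 2 log2 fold changes with the root mean square of the 2 standard errors, tested with a t distribution and Benjamini-Hochberg adjustment over 5759 genes. On the mitochondrial scale, comparisons with DMSO were adjusted over the 28395 tests recovered from p over FDR (81.1% of 3083 ranks whole within 0.01). That adjustment treats unlisted genes as not passing. Contrasts of treated groups on that scale were adjusted over the 5759 listed genes only, which takes no account of unlisted genes. The contrast was run on simulated data in which F was built from the same standard error. That run could not test whether the implied standard error holds for the authors' F. Python 3.11.15, SciPy 1.17.1 and pandas 2.3.3 were used.

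All 10 members were to be named, with up to 15 other pathway genes that passed in at least 1 comparison, by largest absolute log2 fold change at 6 h, MYC and HES7 where listed, and the 3 genes nearest to the listed receptor and target with the highest average level. Members, lists and rules were chosen with earlier results of these data known. Results for some of the marker genes are not reported here.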

Additional observations from a re-analysis of the deposited data

Results flagged for a closer look

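When 6 h of 955 was set against 1 h by the approximate contrast, 13 of the named genes differed past the threshold, and 0 differed between the compounds. NOTCH2 was lower at 6 h by -1.17 on the log2 scale, and HES1 did not pass. Lower at 6 h were also IL7R (-2.10), MYC (-2.04), SNW1 (-1.78), TLE3 (-1.46), ADAM10 (-1.46), CREBBP (-1.22), APH1B (-1.17) and DTX3L (-1.08). Higher at 6 h were HES7 (5.47), HES6 (2.15), JAG2 (1.77) and KAT2B (1.36). All but NOTCH2 were named for the size of their change at 6 h, a value this contrast uses, so their number is a description and is not to be read against the 62.6% of all listed genes called. NOTCH2 was chosen by name, but it passed at 6 h only. Its listing thus rests on 6 h values too, and its difference carries the same selection. CDK6, named after its values were seen, was also lower at 6 h (-1.18, adjusted p 1.46e-09). With a standard error that takes no account of the common DMSO samples, IL7R (adjusted p 0.0816), DTX3L (0.0802) and JAG2 (0.0833) did not pass. On the mitochondrial scale JAG2 (0.37, adjusted p 0.617), KAT2B (-0.04, adjusted p 0.853) and HES6 (0.76, adjusted p 0.0215, under the fold bound) did not pass.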

How the results depend on the processing

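Calls for NOTCH2 and HES1 depended on the fold bound and the scale. With the fold bound raised to 1.5 on the log2 scale, 0 genes were called with 955 at 6 h (1 in the main analysis) and 1 with SNS-032 (2 in the main analysis, HES1 remaining). With an FDR under 0.01, 1 was called with SNS-032 (NOTCH2). Shares of all listed genes past these stricter bounds are not given here, so these counts have no comparison. On the mitochondrial scale 2 were called lower with 955 at 6 h, where 65.8% of all listed genes were. Between 6 h and 1 h of 955, 2 were called lower on that scale, where 58.1% of all listed genes were. The latter calls were adjusted over the 5759 listed genes alone. Each of these counts was 1 in the main analysis. On the same scale the pathway list had 11 calls at 1 h in place of 1, where 27.7% of all listed genes were called lower. The fold-free rule, the level filter and the other standard errors left each count of called members as it was. Among the named genes, mitochondrial scaling turned the 6 h sign for KAT2B (-0.41 with 955 at 6 h, -0.66 with SNS-032), HES6 (-0.37, -1.06), NEURL1 (-0.30, -0.54) and TLE2 (-0.38, -0.13). The difference between compounds for NOTCH2, not called in either case, moved from -0.12 to 0.15. No paired analysis was possible because the table holds comparisons and no values per sample, and leaving out single replicates was not run for the same reason. Depth per sample is unknown, so the limit it sets cannot be given.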
